A study of Mus musculus with 26 samples.

Results

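Expression of 6 tetraspanin genes was measured in a mouse T-lymphoma line: Cd53, Cd37, Cd82, Cd81, Cd151 and Cd9. They are read by the 13 probe sets, of 22626 on the array, whose single annotated gene symbol is 1 of these. Probe sets with a single symbol name 12393 genes in all. Cd53, Cd81 and Cd9 had 1 probe set each, Cd37 and Cd82 had 2 each, and Cd151 had 6. The genes were selected on the large difference of Cd53 between treated and untreated WT cells. All member values in treated against untreated WT are therefore given as descriptions, with no test.

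The cells were S49, an established mouse T-lymphoma cell line used to study responses to cyclic AMP (cAMP). Total RNA was profiled in wild-type (WT) S49 and in Kin-, a variant known to lack active protein kinase A (PKA), the enzyme through which cAMP mostly acts. In each line 4 arrays were from untreated cells (0 h) and 3 arrays each from cells exposed for 2, 6 or 24 h to 8-CPT-cAMP at 100 µM, an analog of cAMP that enters cells, which makes 26 arrays in 8 groups. No untreated arrays belong to the later times, Kin- is a single variant line, and no other agent or allele is given in the labels. Whether arrays of 1 group stem from separate cultures is not in the labels. The p-values below therefore measure only the spread among arrays, possibly technical, and the number of arrays limits their precision. Levels are the square root of the deposited score, read as a log2 intensity; the scale of the score is not stated, so differences in log2 units rest on that reading. Arrays are named by the numbers in their labels.

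Tetraspanins are small proteins that cross the cell membrane several times and carry a large folded outer loop. They seldom act as receptors alone; they gather integrins, immunoglobulin-family proteins, proteases and signalling enzymes into membrane microdomains, and they are abundant in the membranes of late endosomes and exosomes. Cd53 and Cd37 are found mainly on blood cells, where they affect adhesion, migration and antigen-receptor signalling. Cd81, Cd82, Cd9 and Cd151 are found on many cell types.

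The regions before the start sites of Cd53, Cd37 and Cd82 are printed because the probe sets furthest above untreated levels in treated WT belong to these genes. They come from RefSeq on GRCm38.p6, where all 6 genes had at least 1 window (10 windows), and each runs 5′ to 3′ on the gene's own strand, here the minus strand of chr3:106790150-106790399, chr7:45238840-45239089 and, for the first of 4 Cd82 starts, chr2:93462951-93463200. Capitals mark matches, on either strand, to 4 motifs chosen after the sequences had been seen: the cAMP response element (CRE) TGACGTCA, its half-site TGACG (which a full CRE also contains), an ETS-type site AGGAAGT and the GC box GGGCGG.
Cd53: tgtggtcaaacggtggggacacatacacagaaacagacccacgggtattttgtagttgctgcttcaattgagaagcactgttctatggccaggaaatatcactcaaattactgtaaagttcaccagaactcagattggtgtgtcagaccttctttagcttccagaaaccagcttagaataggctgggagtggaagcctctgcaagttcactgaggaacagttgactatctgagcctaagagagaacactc
Cd37: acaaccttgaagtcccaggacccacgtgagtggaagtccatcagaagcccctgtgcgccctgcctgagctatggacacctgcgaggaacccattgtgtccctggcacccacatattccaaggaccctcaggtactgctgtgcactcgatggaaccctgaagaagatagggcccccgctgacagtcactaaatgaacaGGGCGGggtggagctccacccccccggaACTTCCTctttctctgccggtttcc
Cd82: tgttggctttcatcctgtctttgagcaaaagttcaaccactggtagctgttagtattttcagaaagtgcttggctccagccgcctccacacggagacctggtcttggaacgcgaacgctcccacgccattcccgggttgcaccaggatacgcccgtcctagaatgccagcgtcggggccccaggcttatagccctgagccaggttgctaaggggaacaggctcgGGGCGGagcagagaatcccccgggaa

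The 250 bases before Cd53 hold none of these motifs and so have no capitals. Its first 50 transcribed bases hold an ETS-type match at +7 to +13 and a CRE half-site at +39 to +43. The half-site is in capitals in this 30-base stretch of the same strand, chr3:106790100-106790129.
Cd53 site: ctcgcttgggtttcctgtCGTCAcagcatg

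A full CRE was in none of the 10 member windows, each running from 250 bases before to 50 after a start, and in 1.79% of 32851 such windows of all genes. The half-site was in 20.8% of those windows, the ETS-type match in 9.35% and the GC box in 35.7%. Among members the half-site was in the Cd53 window and in the second Cd151 window, at −162 to −158. Cd37 had a GC box at −53 to −48 and an ETS-type match at −25 to −19, and the first Cd82 window had a GC box at −26 to −21 and another at +1 to +6. The Cd53 window was 46.3% G and C with 4 CpG pairs, against a median of 52.7% G and C over all windows, and the Cd81 window, with 3 GC boxes, was 65.7% with 23 CpG pairs. A match is a run of letters, not evidence of binding, and none of these motifs was related to the expression values.

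Some facts of the arrays bear on the values. The 10 arrays numbered 1 to 14 and the 16 numbered 16 to 47 stood apart on the first component left after group means were removed (35.5% of the remaining variance); the labels do not say what separates them, every group holds arrays of both sets, and values are given within each set where they matter. Among arrays 1 to 14 each treated group is a single array, so only the size of a difference is given there. The T-cell identity of the cells was checked on 9 measured marker genes. At 0 h in WT the CD3 chain genes Cd3d, Cd3e and Cd3g had levels of 12.51, 9.98 and 12.23, whereas Cd5 was at 3.19. The B-cell genes Cd79a, Cd79b, Ms4a1 and Pax5 were at 4.91 or below, and the myeloid genes Lyz2, Cd14 and Cd68 at 3.61 or below. The myeloid marker Itgam was at 4.50, and sums over all measured markers of each kind are given further below. In RNA from bulk cells, more cells with a transcript and more transcript per cell cannot be told apart.

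Cd53, a leukocyte tetraspanin linked to adhesion through integrins and to the lymphocyte phosphatase CD45, had by far the widest range of the 6 genes. In untreated WT its level was 7.44 on array 1, 6.67 on array 13, 9.23 on array 16 and 8.64 on array 36, a mean of 8.00 ± 1.15 (SD, n = 4). At 2 h it was 11.16, 12.20 and 12.61 (mean 11.99 ± 0.75, n = 3), at 6 h 11.91, 13.44 and 12.98 (12.78 ± 0.78), and at 24 h 12.04, 13.54 and 13.07 (12.89 ± 0.77). All 9 treated WT arrays lay above all 4 untreated ones, and the lowest in each treated group was the array of the earlier-numbered set.

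In Kin- the untreated arrays 5, 14, 40 and 44 read 6.37, 3.96, 5.57 and 5.53 for Cd53 (mean 5.36 ± 1.01, n = 4). The treated Kin- arrays read 6.07, 5.81 and 5.54 at 2 h, 5.62, 5.85 and 5.60 at 6 h, and 6.83, 6.02 and 5.56 at 24 h. Of these, 8 lay within the untreated range and the other, 6.83, above it, and none reached the lowest treated WT array.

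**Figure D1:**
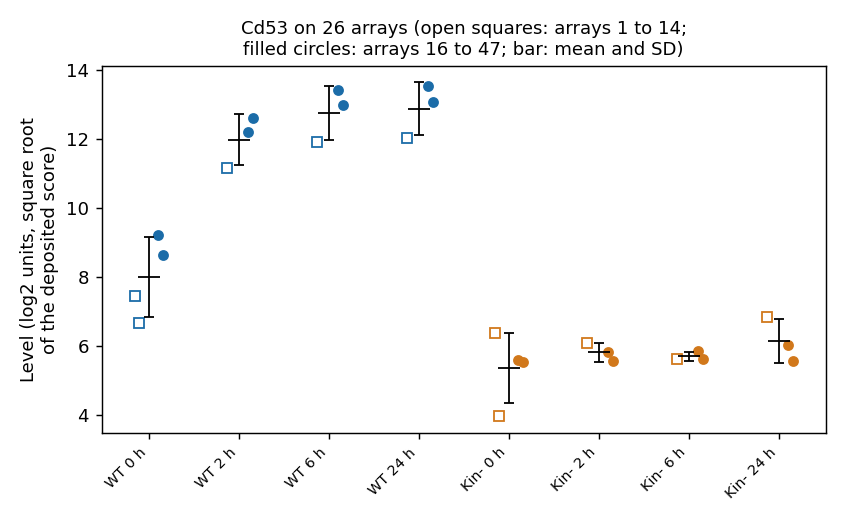
Cd53 level (vertical axis, square root of the deposited score in log2 units) on each of the 26 arrays, by line and time; WT in blue, Kin- in orange, open squares for arrays 1 to 14, filled circles for arrays 16 to 47, bars for the mean and SD. The treated WT arrays sit between 11.16 and 13.54, above untreated WT (6.67 to 9.23) and above every Kin- array (3.96 to 6.83).

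As a difference from untreated WT, Cd53 stood 3.99 ± 0.58 (SE) log2 units higher at 2 h, 4.78 ± 0.58 at 6 h and 4.89 ± 0.58 at 24 h, which would be 15.9-fold, 27.5-fold and 29.6-fold if the level is a true log2 intensity. Most of the difference was present by 2 h: 6 h stood 0.79 above 2 h, and 24 h stood 0.11 above 6 h. Within arrays 16 to 47 the differences were 3.47, 4.27 and 4.37, and within arrays 1 to 14 they were 4.10, 4.85 and 4.99. These values chose the gene; by size of the increase Cd53 was the 16th of 12393 genes at 2 h, between Dusp1 (4.03) and Nfil3 (3.94), the 7th at 6 h and the 14th at 24 h.

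From the highest to the lowest mean, Cd53 stood in the order WT 24 h, WT 6 h, WT 2 h, WT 0 h, Kin- 24 h (6.14), Kin- 2 h (5.81), Kin- 6 h (5.69) and Kin- 0 h. The only neighbours in that order whose arrays did not overlap were WT 2 h and WT 0 h. The highest Kin- 24 h array, at 6.83, lay above the lowest untreated WT array, at 6.67.

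The Kin- arrays were not used to choose the genes, so Cd53 was tested there with limma and Benjamini-Hochberg adjustment over all 22626 probe sets. Its change was 0.45 ± 0.58 at 2 h, 0.33 ± 0.58 at 6 h and 0.78 ± 0.58 at 24 h, with an adjusted p of 1.00 at each time by limma. The 95% interval at 24 h ran from −0.43 to 1.99. The responses of the lines were not tested against each other, since the WT difference chose the gene. The 24 h value depended on array 14, the lowest untreated one: it was 0.31 without that array, 0.24 within arrays 16 to 47 and 1.66 within arrays 1 to 14. Without it the 2 h and 6 h values were −0.02 and −0.13.

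Before any treatment Cd53 was lower in Kin- than in WT by limma, with a difference (Kin- minus WT) of −2.64 ± 0.54 log2 units, a 95% interval from −3.76 to −1.52 and an adjusted p of 0.00653. All 4 Kin- arrays were below all 4 WT arrays, which held for 2 of the 13 member probe sets. The share over all probe sets is not given. The untreated WT arrays in this test are also the baseline of the contrast that chose the genes, so it is not independent of that choice. Within arrays 16 to 47 the difference was −3.38 (adjusted p by limma 7.25e-05), and within arrays 1 to 14, with no p given, it was −1.89. With untransformed deposited scores the adjusted p by limma was 0.0577, so this call rests on the scale used.

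Cd37, a tetraspanin of mature lymphocytes that is best known from B cells, stood higher in treated WT by steps over the whole day. On its brighter probe set, 1419206_at, the untreated WT arrays 1, 13, 16 and 36 read 7.28, 7.49, 7.73 and 7.28. The treated arrays read 7.48, 7.92 and 8.12 at 2 h, 9.34, 9.37 and 9.31 at 6 h, and 10.35, 10.92 and 10.80 at 24 h. The 2 h arrays overlapped the untreated ones, and the 6 h and 24 h arrays stood apart from them and from each other.

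The differences from untreated WT were 0.40 ± 0.14 at 2 h, 1.89 ± 0.14 at 6 h and 3.24 ± 0.14 at 24 h for this probe set. Unlike Cd53, whose largest step was before 2 h, Cd37 had steps of 1.50 from 2 to 6 h and 1.35 from 6 to 24 h. The second probe set, 1425736_at, gave 0.80, 0.79 and 1.91, with all treated arrays above the untreated ones at each time, so the probe sets share the direction and differ in the course between 2 and 6 h. Within arrays 1 to 14 and within arrays 16 to 47, 1419206_at stood 2.96 and 3.35 higher at 24 h.

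In Kin- the brighter Cd37 probe set stayed between 6.89 and 7.28 on all 13 arrays. Its changes were 0.08, −0.04 and 0.04 at 2, 6 and 24 h, each ± 0.14 and none past the threshold by limma, and the 24 h interval ran from −0.25 to 0.34. Untreated Kin- stood 0.37 below untreated WT on this probe set, with an adjusted p of 0.170 by limma, 0.04998 within arrays 16 to 47 and 0.0187 with array weights. The second probe set had Kin- changes of −0.26, −0.10 and −0.35 (± 0.20), none past the threshold by limma, with array 41 at 2 h (4.31) and array 47 at 24 h (4.18) lower than the other Kin- arrays.

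Cd82, also called KAI1 and known as a suppressor of metastasis and a regulator of integrin and receptor traffic, gave readings that disagreed between its probe sets. On 1416401_at the untreated WT arrays 1, 13, 16 and 36 read 7.46, 7.23, 8.10 and 8.25, and the treated arrays read 9.18, 9.98 and 10.13 at 2 h, 9.03, 9.78 and 9.47 at 6 h, and 9.81, 9.94 and 10.09 at 24 h. No treated array overlapped an untreated one, and the 2 h arrays overlapped both later groups. The differences from 0 h were 2.01 ± 0.25, 1.67 ± 0.25 and 2.19 ± 0.25.

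On 1449611_at the same WT arrays lay between 7.54 and 7.91 throughout, and the differences were −0.02, −0.07 and −0.05, each ± 0.07. What separates the 2 Cd82 probe sets was not tested, and a statement about Cd82 in WT rests on 1416401_at alone. In Kin- the changes on 1416401_at were 0.13, 0.05 and 0.04 (± 0.25), none past the threshold by limma, with arrays between 7.85 and 8.44. Untreated Kin- did not pass against untreated WT on either probe set (0.35 ± 0.23, adjusted p 0.711 by limma, for 1416401_at).

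**Figure D2:**
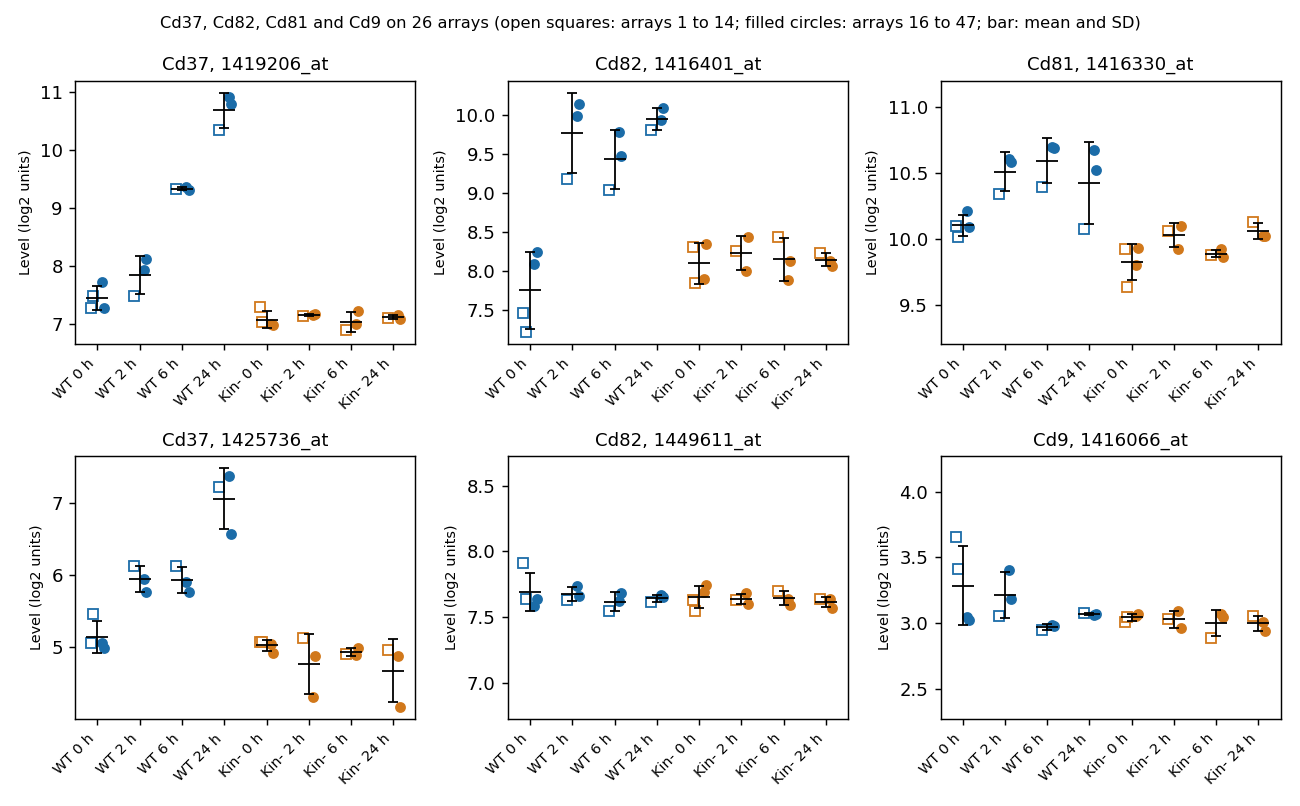
Levels (log2 units) of Cd37 and Cd82 on 2 probe sets each and of Cd81 and Cd9 on each of 26 arrays, by line and time; symbols and bars as for Cd53, and each panel has its own vertical range. Cd37 (1419206_at) stands higher at each later WT time, Cd82 (1416401_at) lies between 9.03 and 10.13 on treated WT arrays and between 7.23 and 8.25 on untreated ones, and the other Cd82 probe set stays between 7.54 and 7.91.

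Cd81, a broadly found tetraspanin that can costimulate T cells, was expressed throughout, with small differences. Its untreated WT arrays 1, 13, 16 and 36 read 10.10, 10.02, 10.21 and 10.09. The treated ones read 10.34, 10.61 and 10.58 at 2 h, 10.40, 10.70 and 10.69 at 6 h, and 10.08, 10.67 and 10.53 at 24 h. The groups did not overlap at 2 and 6 h, and at 24 h array 4, of the earlier-numbered set, lay inside the untreated range.

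Cd81 stood 0.41 ± 0.11, 0.49 ± 0.11 and 0.32 ± 0.11 above untreated WT at the 3 times. At 24 h the value was 0.45 within arrays 16 to 47 and 0.02 within arrays 1 to 14. In Kin- its changes were 0.20, 0.07 and 0.24 (± 0.11), none past the threshold after adjustment by limma. All 3 Kin- 24 h arrays (10.02 to 10.13) were above all untreated Kin- arrays (9.64 to 9.93). This held for 1 of the 13 member probe sets at 24 h. The WT and Kin- differences at 24 h, 0.32 and 0.24, were not tested against each other. Untreated Kin- stood 0.28 ± 0.10 below WT with no overlap, an adjusted p of 0.197 by limma and of 0.0239 with array weights. For neither separation of Cd81 in Kin- is the share over all probe sets given, so nothing is read from them.

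Cd151, the partner of laminin-binding integrins in firm adhesion, was read by 6 probe sets that fall into a brighter and a dim group. Those with the ending x_at are marked by the maker as open to binding by other transcripts. On 1456085_x_at, the brightest over all arrays, the WT arrays read 8.54, 8.76, 8.59 and 8.58 untreated, 8.50, 8.62 and 8.93 at 2 h, 8.84, 8.95 and 9.33 at 6 h, and 9.10, 9.55 and 9.73 at 24 h. The groups overlapped at 2 h and not at 6 or 24 h.

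On the 4 brighter Cd151 probe sets the WT difference ran from 0.06 to 0.36 at 2 h, from 0.42 to 0.69 at 6 h and from 0.52 to 0.89 at 24 h, with SEs between 0.12 and 0.14, and at 6 and 24 h every treated array was above every untreated one on all 4. For 1451232_at, which has no x in its ending, the 24 h difference was 0.76 within arrays 16 to 47 and 0.14 within arrays 1 to 14. The dim probe sets 1427525_at and 1420921_at, near 4.5 and 3.1, differed by 0.06 or less at each time. In Kin- the 6 probe sets changed by between −0.22 and 0.26, none past the threshold by limma.

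Cd9, a tetraspanin of platelets, eggs and many other cells, was near the bottom of the range on 1416066_at. Its untreated WT arrays 1, 13, 16 and 36 read 3.66, 3.41, 3.05 and 3.03, and the treated WT arrays lay between 2.94 and 3.40. The differences from 0 h were −0.07, −0.32 and −0.22 (± 0.11). Arrays 1 and 13 set them: within arrays 16 to 47 they were 0.25, −0.06 and 0.03. In Kin- all 13 arrays lay between 2.88 and 3.09, with no change past the threshold by limma.

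**Figure D3:**
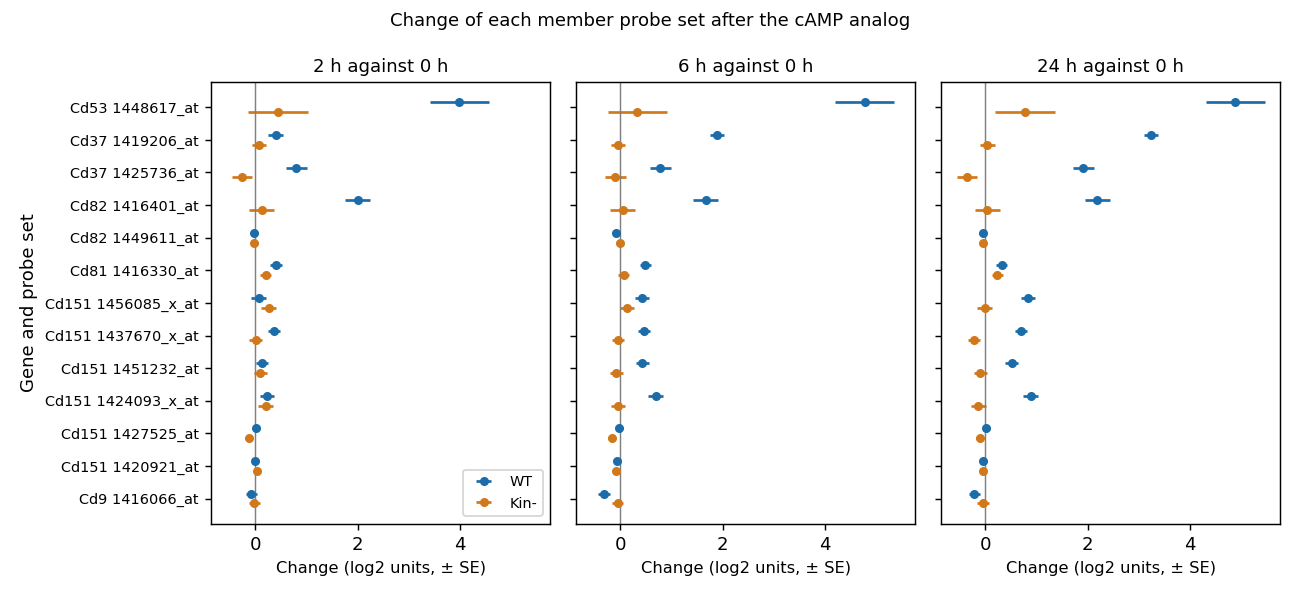
Difference from 0 h (horizontal axis, log2 units, points with SE) of each of the 13 member probe sets at 2, 6 and 24 h, WT in blue and Kin- in orange. In WT the points of Cd53 lie between 3.99 and 4.89, Cd37 moves right with time, Cd82 is split by probe set, and the Kin- points lie between −0.35 and 0.78.

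Counted over the 13 probe sets in WT, all treated arrays were above all untreated ones for 4 at 2 h, 9 at 6 h and 8 at 24 h, and below them for 0, 2 and 0. Over all 22626 probe sets the shares above were 11.9%, 10.9% and 15.6%, and the shares below 9.96%, 22% and 16%; since this contrast chose the genes, nothing is read from the comparison. The 2 below at 6 h were Cd9 and the dim Cd151 probe set 1427525_at. The median difference of the 13 was 0.23, 0.47 and 0.70 at the 3 times, and that of all probe sets was 0.05, −0.03 and −0.01.

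In Kin- none of the 13 passed at 2, 6 or 24 h by limma (background 0%, 0% and 0%: 0 of 22626 probe sets were called at each time). At an unadjusted p under 0.05 there were 0, 1 and 1 members, the dim Cd151 probe set 1427525_at at 6 h (−0.16) and Cd81 at 24 h, against 489, 429 and 491 of all probe sets (2.16%, 1.9% and 2.17%). Between the untreated lines 0 of the 13 passed as higher in Kin- and 1, Cd53, as lower, where 1.58% and 1.42% of all probe sets passed. At an unadjusted p under 0.05 there were 5 members in that comparison, and 11.5% of all probe sets.

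Across the family, 20 of 25 other tetraspanin and related genes listed were measured, each by its probe set with the highest mean (Cd63, Tspan7, Tspan11, Tspan18 and Upk1b were not used here). Unlike the members, they were tested in WT. This list and the lists of partners and endosomal genes below were chosen with earlier results of these data known. Their WT p-values and counts are therefore not independent of that choice. At 2 h 1 passed as higher and 0 as lower by limma (7.11% and 7.25% of all probe sets passed in these directions), at 6 h 1 and 0 (9.52% and 10.1%), and at 24 h 6 and 0 (14.4% and 15.6%). These shares, here and for the lists below, count probe sets, whereas the lists count genes by their brightest probe set. A share over genes is not given here. With each run of 4 arrays as a replicate block, 4 of the listed genes passed at 2 h, 2 of them as higher. At an unadjusted p under 0.05, 1, 1 and 0 were lower. The list's median change was 0.05, 0.04 and 0.11. The largest was Tspan17, 1 of the TspanC8 tetraspanins that guide the protease ADAM10, which rose from 4.52 ± 0.41 (n = 4) to 6.65 ± 0.81 (n = 3) at 24 h, by 2.13 ± 0.29 with an adjusted p of 4.08e-06 by limma. Its other probe set rose by 0.90.

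Tspan13 rose by 1.14 ± 0.20 at 24 h (adjusted p 0.00011 by limma) and by 1.07 on its other probe set, and Tspan9 by 1.00 ± 0.23 (adjusted p 0.00178). Within arrays 1 to 14 the 24 h values were 1.55 for Tspan17, 1.00 for Tspan13 and 0.55 for Tspan9, each from a single treated array. The other genes that passed were named after their values were seen: Tspan31 (0.77 at 6 h and 0.83 at 24 h, while the third of its probe sets gave −0.14 at 24 h), Tspan14 (0.72 at 24 h) and the dim Tspan10 (0.22 at 2 h, adjusted p 0.0497 by limma, and 0.21 at 24 h). Of the remaining TspanC8 genes, Tspan5, Tspan15 and Tspan33 had 24 h changes of 0.10, 0.19 and −0.02 and did not pass, and Adam10 had 0.35 ± 0.14 (adjusted p 0.0791). None of the 20 passed in Kin- at any time or between the untreated lines by limma. Of all probe sets 0% were called in Kin- at each time, and 1.58% and 1.42% as higher and lower between the lines. At an unadjusted p under 0.05 there were 0, 1 and 0 in Kin- (2.16%, 1.9% and 2.17% of all probe sets) and 3 between the lines (11.5%).

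**Figure D4:**
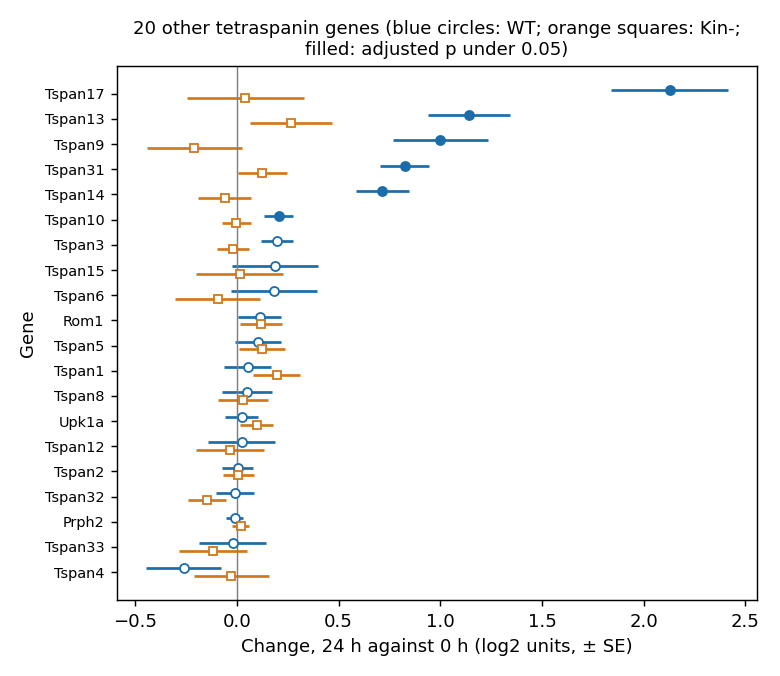
Change at 24 h against 0 h (horizontal axis, log2 units, with SE) of the 20 other tetraspanin and related genes, WT as blue circles and Kin- as orange squares, filled where the adjusted p was under 0.05. Of the WT points 6 are filled, from Tspan10 at 0.21 to Tspan17 at 2.13, and the Kin- points, none filled, lie between −0.21 and 0.27.

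Integrins are the best known partners of tetraspanins, and 14 of 15 listed subunits were measured. In WT 0 rose and 1 fell at 2 h, 2 rose and 1 fell at 6 h, and 6 rose and 1 fell at 24 h by limma, where the shares of all probe sets called higher and lower were 7.11% and 7.25%, 9.52% and 10.1%, and 14.4% and 15.6%; with the replicate block 2 passed at 2 h, 1 in each direction. Itgb2, the shared beta chain of the leukocyte integrins, rose by 1.10 ± 0.09 at 6 h and 1.38 ± 0.09 at 24 h, from 9.15 ± 0.20 to 10.53 ± 0.08 (adjusted p 1.56e-10 by limma at 24 h). Of its alpha chains, Itgam rose by 2.11 ± 0.26 at 24 h (2.67 within arrays 16 to 47 and 0.97 within arrays 1 to 14) and Itgal by 0.74. Itgav rose by 1.27 ± 0.25 at 24 h on 1 probe set, with 0.02 and −0.05 on the other two. The laminin-receptor subunit Itga6, a Cd151 partner, fell by 0.64, 0.73 and 0.55 at the 3 times on the brighter of its 2 probe sets. With the probe set of largest spread for each gene, 0 integrins passed at 2 h, so the other Itga6 probe set did not pass then. Its values are not given here. Itga3 and Itgb1 had 0.19 and −0.02 at 24 h and did not pass. Between the untreated lines Itga6 was lower in Kin- by 0.33 on its brighter probe set (adjusted p 0.0369 by limma). It was the only listed integrin called there, where 1.42% of all probe sets were called lower. Itgal and Itga6, with changes under 1, were named after their values were seen. The list's median change was 0.03, 0.08 and 0.20.

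Of 28 other listed partners 25 were measured, and the counts that rose and fell in WT by limma were 1 and 2 at 2 h, 4 and 4 at 6 h, and 6 and 2 at 24 h, with medians of 0.08, 0.03 and 0.00. Against the same shares of all probe sets, the counts at 2 h and the 2 that fell at 24 h are near or below the background. Cd2, a T-cell adhesion receptor reported in complexes with CD53, fell by 2.09 ± 0.28 at 6 h (adjusted p 1.33e-05 by limma), and Cd8b1, a coreceptor chain, fell by 1.51 ± 0.24 at 2 h. At 24 h Cd2 was still 1.36 below its untreated level, whereas Cd8b1 had a change of −0.005 and did not pass. The protein kinase C genes, whose products bind tetraspanins, went apart at 6 h: Prkca rose by 1.48 ± 0.16 and Prkcb fell by 1.33 ± 0.19, and at 24 h Prkcb was 0.68 above its untreated level. Cd47, an integrin-associated protein, rose by 1.32 ± 0.16 at 24 h, although 1 of its probe sets fell by 1.01 at 2 h. Ptprc, which encodes CD45, rose by 0.76 ± 0.23 at 24 h, and Igsf8, a direct partner of Cd9 and Cd81, fell by 0.66 ± 0.17. Within arrays 1 to 14, with a single array in each treated group, Cd2 had −1.96 at 6 h and Cd8b1 −1.53 at 2 h. Prkca and Prkcb had 1.32 and −1.16 at 6 h there. Ptprc and Igsf8 were likewise named after their values were seen. Between the untreated lines Cd2 and Igsf8 were higher in Kin- by 2.00 and 1.02, and Prkca lower by 0.76. Their adjusted p by limma was 9.94e-05, 0.000625 and 0.00434. Of the 25 genes 2 thus passed as higher and 1 as lower, where 1.58% and 1.42% of all probe sets passed.

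All 16 listed genes of exosomes and late endosomes, membranes rich in tetraspanins, were measured. In WT 4 rose at 2 h, 8 at 6 h and 8 at 24 h by limma (7.11%, 9.52% and 14.4% of all probe sets were called higher), and 0 passed as lower. With the replicate block 5, 8 and 10 rose and 1, 1 and 0 fell, and 1, 1 and 0 were lower at an unadjusted p under 0.05 without it. The median change was 0.18, 0.29 and 0.34, against 0.05, −0.03 and −0.01 over all probe sets. The first medians are over genes by their brightest probe set and the second over all probe sets, dim ones included, so they are not alike. The late endosomal membrane gene Lamp2 rose by 0.80, 1.33 and 1.88 on its brightest probe set (± 0.14, adjusted p 1.01e-09 by limma at 24 h). Its other probe sets rose by 1.73, 3.42 and 3.16 at 24 h. Flot2 and Flot1, of flotillin membrane domains, rose by 1.53 and 1.39 at 24 h, and the other Flot2 probe set by 1.00. Within arrays 1 to 14 the Flot1 change at 24 h was 1.10, from a single treated array. Genes of the ESCRT machinery, which forms vesicles inside endosomes, were among them: Vps4a rose by 0.83 at 2 h and Tsg101 by 0.85 at 24 h, both named after their values were seen. Pdcd6ip, Rab27a and Rab27b, which act in the formation or release of exosomes, had 24 h changes of 0.10, 0.02 and 0.20 and did not pass. In Kin- none of the 75 genes in these 4 lists passed by limma, where 0% of all probe sets were called at each time. At an unadjusted p under 0.05 there were 2, 1 and 0 of them, against 2.16%, 1.9% and 2.17% of all probe sets. Between the untreated lines 1 of the 16 endosomal genes passed as lower in Kin- and 0 as higher by limma. Of all probe sets 1.42% and 1.58% passed in these directions. At an unadjusted p under 0.05 there were 4 of the 16, all lower, against 11.5% of all probe sets in either direction.

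Since Cd53 and Cd37 are shared by many leukocytes, markers of other blood cells are given beside them. In WT the summed level of 8 myeloid markers was 31.0 to 31.3 at 0 h and 33.1 to 37.5 at 24 h, with Itgam and Fcgr3 (up by 1.88) passing and Csf1r, Lyz2, Cd14, Cd68, Adgre1 and Fcer1g between −0.14 and 0.04. The sum of 6 B-cell markers was 25.0 to 25.9 at 0 h and 26.8 to 28.9 at 24 h, with Cd22 (0.95) and Blnk (1.42) passing and Cd79a, Cd79b, Ms4a1 and Pax5 between −0.11 and 0.08. The T-cell sum over 9 genes was 89.5 to 91.0 at 0 h, 86.4 to 88.1 at 2 h, 86.8 to 90.3 at 6 h and 91.0 to 93.6 at 24 h, and its members moved both ways: by limma 1 rose (Zap70) and 3 fell (Thy1, Cd2 and Lat) at 2 h and at 6 h, and 5 rose and 2 fell (Thy1 and Cd2) at 24 h. None of 6 platelet and erythroid markers passed. Over all probe sets in WT the shares called higher and lower were 7.11% and 7.25% at 2 h, 9.52% and 10.1% at 6 h, and 14.4% and 15.6% at 24 h. At 2 h the myeloid sum was 31.1 to 32.1, with Adgre1 passing at 0.23, and no B-cell marker passed by limma (0 at an unadjusted p under 0.05). The part of these markers in the levels of Cd53 and Cd37 was not tested.

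The genes whose levels followed each member most closely are given by Pearson's r over the 26 arrays, which share lines, times and array sets, so r is a description with no test. For Cd53 they were Fam107b (0.984), Sh2d2a (0.983), Paip2 (0.981), Irf8 (0.976), Trat1 (0.973), Abcb1b (0.973), Zap70 (0.971) and Txndc16 (0.971). Within the 13 Kin- arrays the same pairs had r between −0.05 and 0.74. The closest were Cybc1 (0.981), Sdf4 and Gramd1a for Cd37, Nsun4 (0.953), Arid5a and Nabp1 for Cd82, Chmp4b (0.950), Tcf25 and Tpm4 for Cd81, Tor4a (0.892), Dop1b and Prkcsh for Cd151, and Pgf (0.864), Rab40b and Tescl for Cd9. Over the 26 arrays the SD of the level was 3.24 for Cd53, 1.26 for Cd37, 0.87 for Cd82, 0.30 for Cd81, 0.31 for Cd151 and 0.17 for Cd9.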

How the data were processed

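Gene expression in WT and Kin- S49 cells was taken from a single table of 22626 probe sets on 26 arrays. The values are scores that the authors deposited after their own processing; for these deposited scores the method, software and scale were not given in the sources used here. They run from 0.375 to 267, and their square root, from 0.612 to 16.4 with column medians from 5.40 to 5.53, was read as a log2 intensity.

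Probe sets were named from the platform annotation (20380 with 1 symbol, 691 with several, 1555 with none; only the first kind was used). Groups and array numbers came from the labels. Limma 3.58.1 in R 4.3.3 fitted 1 mean per group to every probe set over all 26 arrays (lmFit, eBayes), with Benjamini-Hochberg adjustment over all probe sets and a threshold of 0.05; the median SE of a WT change was 0.119. The script was tested on simulated data. No array copied another (root mean square difference within a group from 0.170 to 0.454).

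The members and the gene lists were chosen with earlier results of these data known. All member probe sets are named; from the lists, genes that pass in WT with a change of at least 1, at most the 10 largest a list, and any gene as not passing; for likeness, the 8 closest genes to Cd53 and the 3 closest to each other member. Listed genes with no probe set of their own symbol were not used here. The array numbers form runs of 4 that hold 0, 2, 6 and 24 h in turn. Residuals correlated within all 6 runs (0.230 to 0.697), and each run was tried as a replicate block. Between the later runs of a line the correlations went from −0.305 to 0.387. These include arrays of the same group, whose residuals are pushed apart by removing the group mean. The mean within a run was from 0.318 to 0.623. The ranges overlap, which does not show that arrays of a run are unrelated. Alternatives covered scale, normalization, a filter on dim probe sets, the array set, the block, moderation, array weights, the probe set standing for a gene, and each array left out.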

Additional observations from a re-analysis of the deposited data

Results flagged for a closer look

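For Cd151, single untreated arrays stood apart from their group relative to its range: array 13 of WT at 7.74 on 1424093_x_at, with a gap of 0.182 log2 units, and on the dim 1427525_at array 40 of Kin- at 4.90 (gap 0.315) and array 1 of WT at 4.55, whose gap of 0.0093 is large only beside a very narrow range. These were 3 of 26 groups of 4 arrays examined (each member probe set in each untreated group), where chance flags about 5%, or 1.3 groups.

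The WT and Kin- changes of several listed genes differed by limma's test of the difference (adjusted over all probe sets). These genes were named for passing in WT with a change of at least 1, and the test uses the same WT arrays, so it is not independent of that choice; of all probe sets 6.92%, 10.8% and 21.5% differed at 2, 6 and 24 h. WT minus Kin- at 24 h was 2.08 ± 0.40 for Tspan17 (adjusted p 0.000542), 0.87 for Tspan13 (adjusted p 0.0309) and 1.21 for Tspan9 (adjusted p 0.00956). Among integrins it was 2.09 for Itgam, 1.28 for Itgb2 and 1.48 for Itgav at 24 h (adjusted p 0.000243, 2.02e-07 and 0.00364). It was −2.17 for Cd2, 1.69 for Prkca and −1.38 for Prkcb at 6 h, −1.43 for Cd8b1 at 2 h and 1.21 for Cd47 at 24 h. In late endosomal and flotillin membranes it was 1.89 for Lamp2, 1.13 for Flot2 and 1.10 for Flot1 at 24 h.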

How the results depend on the processing

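Cd53 kept its direction in WT under every alternative run. As score units on other scales its difference at 2, 6 and 24 h was 18.8, 22.96 and 23.55 at power 0.75 and 79.1, 98.7 and 101.5 untransformed, and leaving out 1 array gave 3.55 to 4.41, 4.34 to 5.21 and 4.45 to 5.31. In Kin- 0 members passed under every alternative run. Calls with arrays 1 to 14 alone are not counted here, since each treated group there is a single array. Between the untreated lines 1 member passed, against 0 with untransformed scores, 2 with arrays 16 to 47 alone and 3 with array weights. The causes were not tested.

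Counts of listed genes that passed in WT moved with the arrays used. For the 20 other tetraspanins the 2 h count of 1 became 3 with the array set as a term. It became 7 with arrays 16 to 47 alone or with array weights, and 4 with the replicate block. It became 2 with the probe set of largest spread, and 0 with trend and robust moderation. The 6 h count of 1 became 2 with quantile normalization, array weights or largest spread, and 3 with arrays 16 to 47 alone. Counts with arrays 1 to 14 alone are not given, since each treated group there is a single array. Integrins at 2 h (1) became 2 with the replicate block and 0 with largest spread, and at 6 h (3) 5 with array weights; other partners at 2 h (3) became 5 with array weights or largest spread. Leaving out 1 array gave 0 to 2 for other tetraspanins at 2 h, where the call of Tspan10 was near the threshold and 19 of the 26 arrays changed the count, and 1 to 3 at 6 h (2 without array 1 or 8, 3 without array 3). For other partners it gave 3 to 5 at 2 h (5 without array 2), 5 to 8 at 6 h (5 without array 1, 18 or 38) and 5 to 9 at 24 h (5 without array 19). With the replicate block, which drops arrays 13 and 14 and cannot compare the untreated lines, Cd53 in WT stood 3.55, 4.34 and 4.45 higher, and the block moved no other count by over 1.5 times. Arrays 16 to 47 and 1 to 14 alone are small sets, and the number of arrays and the dim signal of Cd9 limit what could be detected.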
